A study of Mus musculus with 8 samples.

Results

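The TNF superfamily ligands examined here were 8 genes, Ltb, Lta, Tnf, Tnfsf10, Tnfsf12, Tnfsf13, Tnfsf13b and Tnfsf14, read from the 56748 genes of a count table of sorted mouse monocytes. The set was chosen by family name around 1 result in these same libraries, the lower level of Ltb in knockout cells. The Ltb values are therefore given as a description with no test. Of the 8 genes, 7 passed the filter on low counts and Lta did not.

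The cells were Ly6Chigh monocytes, the classical inflammatory subset in mice, isolated from spleen by flow cytometry at day 7 after an aneurysm had been induced. There were 4 libraries from wild-type mice (WT 1 to WT 4) and 4 from Olfr2 knockout mice (KO 1 to KO 4). Olfr2 is an olfactory receptor gene, which the study relates to the recruitment of monocytes in abdominal aortic aneurysm. All 8 libraries shared the tissue, the sort, the day and the aneurysm, so there were no libraries from animals without one. The labels state neither how the aneurysm was induced, nor the strain, age or knockout construct, nor whether 1 animal gave 1 library. The p-values therefore rest on the spread between libraries, which may be technical.

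TNF superfamily ligands are membrane proteins that assemble as trimers, and many of them can be cut from the cell surface by proteases. They bind receptors of the TNF receptor superfamily, which signal through TRAF adaptors to NF-kB, or through death domains to caspases. Lymphotoxin beta (Ltb) holds lymphotoxin alpha (Lta) at the cell surface in a mixed trimer that binds the lymphotoxin beta receptor (Ltbr), while Lta alone is secreted and binds the TNF receptors. In monocytes TNF is a cytokine made upon inflammatory stimulation, and BAFF (Tnfsf13b) and APRIL (Tnfsf13) are myeloid factors that sustain B cells.

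Ltb, Tnf and Lta lie side by side in the major histocompatibility complex on chromosome 17 (GRCm38). Ltb is on the plus strand at chr17:35194439-35196320, with Tnf on the minus strand at chr17:35199381-35202007 and Lta on the minus strand at chr17:35203165-35205351. The intervals between them are 3060 bases from Ltb to Tnf and 1157 bases from Tnf to Lta. Their promoters are shown because Ltb, the gene on which the set was selected, and its neighbours of the same family had different levels in these cells. Each sequence runs 5′ to 3′ on the strand of its gene from 250 bases before to 50 bases after the RefSeq start site (GRCm38.p6), and capitals mark a match to the kB motif, the binding site of NF-kB. The windows are chr17:35194257-35194556 for Ltb, chr17:35201958-35202257 for Tnf and chr17:35205302-35205601 for Lta.
Ltb: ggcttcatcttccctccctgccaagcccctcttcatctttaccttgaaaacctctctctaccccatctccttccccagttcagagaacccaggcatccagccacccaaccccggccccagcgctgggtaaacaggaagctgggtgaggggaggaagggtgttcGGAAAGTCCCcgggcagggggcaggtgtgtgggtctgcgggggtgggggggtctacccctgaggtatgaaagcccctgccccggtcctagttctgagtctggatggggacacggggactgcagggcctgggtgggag
Tnf: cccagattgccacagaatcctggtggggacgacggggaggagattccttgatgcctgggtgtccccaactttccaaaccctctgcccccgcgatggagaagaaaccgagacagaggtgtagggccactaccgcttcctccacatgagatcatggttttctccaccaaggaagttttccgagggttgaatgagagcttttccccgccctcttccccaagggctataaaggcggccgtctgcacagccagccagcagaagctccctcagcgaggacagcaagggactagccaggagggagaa
Lta: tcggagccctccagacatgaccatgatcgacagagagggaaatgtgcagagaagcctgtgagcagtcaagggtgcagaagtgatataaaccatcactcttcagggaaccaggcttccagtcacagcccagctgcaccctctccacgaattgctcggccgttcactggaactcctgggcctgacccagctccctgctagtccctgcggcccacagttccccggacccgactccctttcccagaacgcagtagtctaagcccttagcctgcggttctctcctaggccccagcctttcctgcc

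The kB motif was searched as GGGRNNYYCC, where R is A or G, Y is C or T and N is any base. A site that departs from this pattern, or lies outside the window, would not be found. The Ltb promoter held 1 match, whose first base was at position -87 from the start site, and the Tnf and Lta windows held none. Both strands were searched, and 8.46% of the 32851 promoter windows of the RefSeq table had such a match. The AP-1 motif TGANTCA occurred in 7.81% of all windows and, among the ligands with an entry, at position -133 in Tnfsf13, at position -160 in Tnfsf14 and in both overlapping windows of Tnfsf13b. The interferon response motif, GAAA followed by 2 bases of any kind and GAAA again, was found in 3.44% of windows. It occurred once among the ligands, at position -16 of 1 Tnfsf13b window. Windows were matched by symbol for 7 of the 8 ligands, all but Tnfsf12, and a match is letters in a window, not measured binding.

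Library totals ranged from 16111725 to 19048245 counts for WT and from 17258427 to 21728794 counts for KO. Olfr2 had 0 counts in all 8 libraries, which leaves the genotype labels unchecked by it. The sort was reflected in its defining transcripts, with Ly6c2 at 4059 to 5230 CPM (counts scaled to the library total) in WT and 4685 to 5891 CPM in KO, and Ccr2 at 1022 to 1859 CPM and 1250 to 2290 CPM. The libraries KO 1 and KO 2 stood apart in neutrophil transcripts. S100a8 was at 770 and 1463 CPM there and at 23.7 to 75.0 CPM in the other 6 libraries. The granule gene Ngp was at 104 and 80.2 CPM there and at 0 to 1.63 CPM in the other 6. The columns of the count table carry numbers in the 1600s for WT 1, WT 2, KO 1 and KO 2 and in the 1700s for the other 4 libraries. What these 2 series stand for is not stated. Across the table, 119 of 11222 tested genes (1.06%) passed an adjusted p of 0.05 between KO and WT (edgeR quasi-likelihood test, Benjamini-Hochberg). Of these, 94 (0.838%) were lower and 25 (0.223%) higher in KO. An unadjusted p under 0.05 was reached by 20.9% of all tested genes. DESeq2 called 6.28% of the genes it gave an adjusted p, 3.47% lower and 2.81% higher in KO, and limma-voom called 0%.

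Ltb was counted at 9.15, 7.82, 8.16 and 5.28 CPM in WT 1 to WT 4, and at 3.36, 1.70, 2.37 and 2.49 CPM in KO 1 to KO 4. All 4 KO libraries were below all 4 WT libraries, a separation that 8.66% of tested genes showed in this direction and 2.81% in the other. The WT mean of 7.60 ± 1.65 CPM compared with a KO mean of 2.48 ± 0.681 CPM (SD, n = 4 each). On the log2 scale the change was -1.54 ± 0.24 (SE), or 34.3% of the WT level. Raw counts were 85 to 168 per WT library and 30 to 58 per KO library, and the smallest, 30 in KO 2, has a 95% exact Poisson interval of 20.2 to 42.8 counts. In RNA from a sorted population, fewer cells of a type that carries a transcript and less of it per cell cannot be told apart.

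The Ltb difference had the same sign in both number series. The log2 change was -1.59 ± 0.35 (SE) within the 1600 series and -1.50 ± 0.32 within the 1700 series, with 2 libraries per genotype in each. Without KO 1 and KO 2, the libraries high in neutrophil transcripts, it was -1.60 ± 0.29. With an offset in each library for the length and GC content of transcripts it was -1.15 ± 0.20, the smallest of 20 alternative settings, which ranged from -1.72 to -1.15. The longest Ltb transcript has a GC content of 61.0%, the highest of the 8 ligands, whose others ranged from 42.8% to 58.5%.

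**Figure D1:**
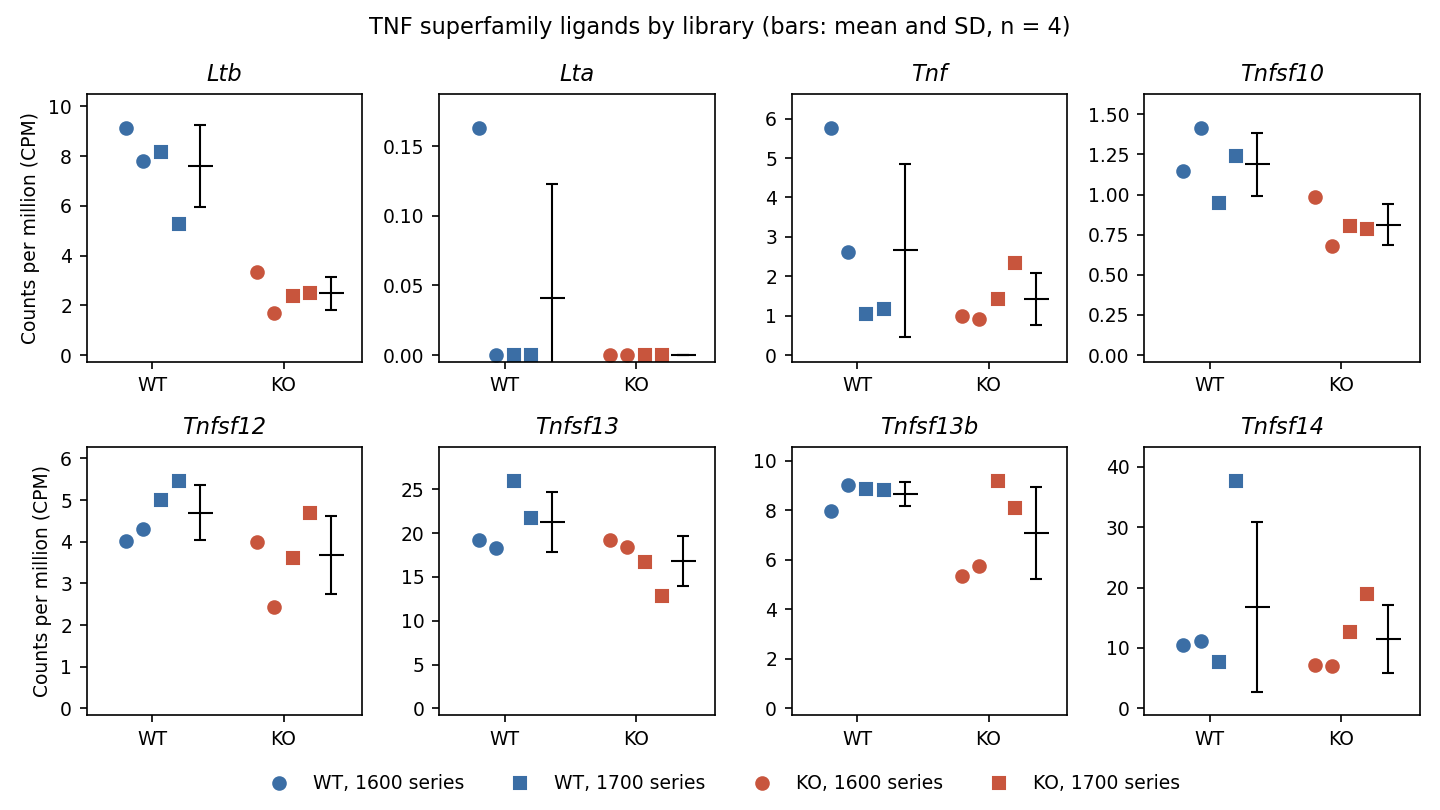
Level of each ligand in CPM (y axis, linear, a separate scale for each gene) in the 4 WT and 4 KO libraries, with circles for the 1600 series, squares for the 1700 series and bars for the mean and SD. The 4 KO values of Ltb (1.70 to 3.36 CPM) lie below the 4 WT values (5.28 to 9.15 CPM), whereas the groups overlap for the other 6 tested ligands.

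Lta, the partner of Ltb, was at the limit of detection. It had 3 counts in WT 1 and 0 counts in each of the other 7 libraries. With the limit that a count of 0 allows set at 3 counts, this leaves room for up to 0.138 to 0.186 CPM in these libraries, for counting error only. In 7 libraries Lta thus could not be detected at this depth, and no fold was computed.

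Tnf, the founding member of the family, spread widely between the libraries of a genotype. It was at 5.77, 2.63, 1.05 and 1.18 CPM in WT 1 to WT 4 and at 0.985, 0.909, 1.42 and 2.35 CPM in KO 1 to KO 4. The groups overlapped, with WT 1 highest of all and KO 4 above WT 3 and WT 4. The log2 change was -0.81 ± 0.51 (SE; edgeR adjusted p = 0.389), from 2.66 ± 2.20 to 1.42 ± 0.661 CPM (SD, n = 4 each), and it was -0.43 ± 0.64 without KO 1 and KO 2.

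The Tnf difference had opposite signs in the 2 number series. Within the 1600 series both KO libraries were below both WT libraries, with a log2 change of -1.98 ± 0.48 (edgeR adjusted p = 0.0854). Within the 1700 series both KO libraries were above both WT libraries, at 0.74 ± 0.42 (edgeR adjusted p = 0.338). Their difference was 2.71 ± 0.66 on the log2 scale and missed the threshold (edgeR interaction adjusted p = 0.0777), in a test that 0.784% of genes passed. For Ltb the same difference was 0.08 ± 0.49.

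Tnfsf14 (LIGHT, a ligand of Ltbr and of the herpesvirus entry mediator Tnfrsf14) lies on chromosome 17 as well, at chr17:57189492-57194177 on the minus strand. It was at 10.6, 11.2, 7.74 and 37.7 CPM in WT 1 to WT 4 and at 7.24, 6.99, 12.6 and 18.9 CPM in KO 1 to KO 4. The highest library of each genotype was replicate 4, and the groups overlapped. The log2 change of -0.49 ± 0.59 did not pass (edgeR adjusted p = 0.675), and it was 0.31 without WT 4.

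Both ligands of B cell survival were detected in every library. Tnfsf13 (APRIL; chr11:69682846-69685784, minus strand) was at 19.2, 18.3, 26.0 and 21.7 CPM in WT and at 19.2, 18.5, 16.7 and 12.8 CPM in KO, with KO 3 and KO 4 below every WT library. Its log2 change of -0.27 ± 0.19 did not pass (edgeR adjusted p = 0.424). Within the 1600 series it was 0.17 and within the 1700 series -0.72, and the difference of -0.90 ± 0.29 did not pass either (edgeR interaction adjusted p = 0.156).

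Tnfsf13b (BAFF; chr8:10006467-10039072, plus strand) was even across the WT libraries, at 7.95, 9.03, 8.84 and 8.81 CPM. In KO it was at 5.33 and 5.74 CPM in KO 1 and KO 2 and at 9.19 and 8.10 CPM in KO 3 and KO 4, so that the low values were those of the libraries with high neutrophil transcripts. The log2 change was -0.22 ± 0.19 (edgeR adjusted p = 0.539) in all libraries and 0.04 ± 0.21 without KO 1 and KO 2. Whether the neutrophil transcripts have a part in this was not tested.

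Tnfsf12 (TWEAK; chr11:69686250-69695849, minus strand) was at 4.03, 4.31, 5.00 and 5.46 CPM in WT and at 4.00, 2.44, 3.60 and 4.69 CPM in KO. KO 1, KO 2 and KO 3 were below every WT library, and KO 4 was within the WT range. Its log2 change of -0.28 ± 0.23 did not pass (edgeR adjusted p = 0.503) and was -0.01 with the length and GC offsets.

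Tnfsf12 and Tnfsf13 are neighbours whose counts share exon sequence with a readthrough gene. This gene, Tnfsfm13, covers 48.3% of the Tnfsf12 exon bases and 60.0% of the Tnfsf13 exon bases on the same strand, and it had 327 counts over the 8 libraries. The antisense gene Tnfsf13os, with 6012 counts, covers 13.5% of the Tnfsf13 exon bases. Reads in the bases shared with Tnfsfm13 cannot be told apart by strand, since that gene is on the same strand. Reads in the bases shared with Tnfsf13os cannot be told apart where strand was not used in counting. The strand setting is not given in the sources used here. The Tnfsf12 and Tnfsf13 levels are therefore uncertain.

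Tnfsf10 (TRAIL, which triggers death receptors; chr3:27317028-27342427, plus strand) had the fewest counts of the tested ligands. Its values were 1.14, 1.42, 0.948 and 1.24 CPM in WT and 0.985, 0.682, 0.805 and 0.782 CPM in KO. KO 1 reached into the WT range and the other 3 KO libraries were below it. With only 12 to 27 counts per library, the log2 change of -0.47 ± 0.31 did not pass (edgeR adjusted p = 0.407).

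Ltb is left out of this tally, since it is the gene by which the set was chosen. The other 6 tested ligands all had a negative log2 change, with a median of -0.38, where 50.4% of all tested genes were negative and their median was -0.0038. Without KO 1 and KO 2, 5 of these 6 were negative with a median of -0.28. With all libraries, none of the 6 passed the threshold with edgeR (1.06% of all genes), and none had an unadjusted p under 0.05 (20.9% of all genes). None passed with DESeq2 (6.28% of all genes) or limma-voom (0%). Without KO 1 and KO 2, 1 of the 6 had an unadjusted p under 0.05 with edgeR, as had 1850 of 11801 genes. The SE were largest for Tnfsf14 and Tnf, at 0.59 and 0.51 on the log2 scale, and 0.19 to 0.31 for the other 4.

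Levels of different genes were compared per kilobase of exon. The exon bases shared with other genes leave the places of Tnfsf12 and Tnfsf13 in this order uncertain. Tnfsf13 was highest in WT at 13 ± 2.09 CPM per kilobase (SD, n = 4), followed by Tnfsf14 at 9.09 ± 7.58, Ltb at 5.01 ± 1.09 and Tnfsf12 at 3.10 ± 0.430. Below these came Tnf at 1.62 ± 1.34, Tnfsf13b at 1.26 ± 0.0702, Tnfsf10 at 0.226 ± 0.0372 and Lta at 0.0295 ± 0.0591. Neighbours in this order overlapped in their libraries, except that Tnfsf13b was above Tnfsf10 and Tnfsf10 above Lta in every library. With the length of the longest transcript in place of all exon bases, Tnfsf13b was at 1.82 CPM per kilobase and stood above Tnf.

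In KO the order was Tnfsf13, Tnfsf14, Tnfsf12, Ltb, Tnfsf13b, Tnf, Tnfsf10 and Lta, so that Ltb stood below Tnfsf12. Ltb was at 1.64 ± 0.449 and Tnfsf12 at 2.43 ± 0.622 CPM per kilobase there, with overlapping libraries.

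**Figure D2:**
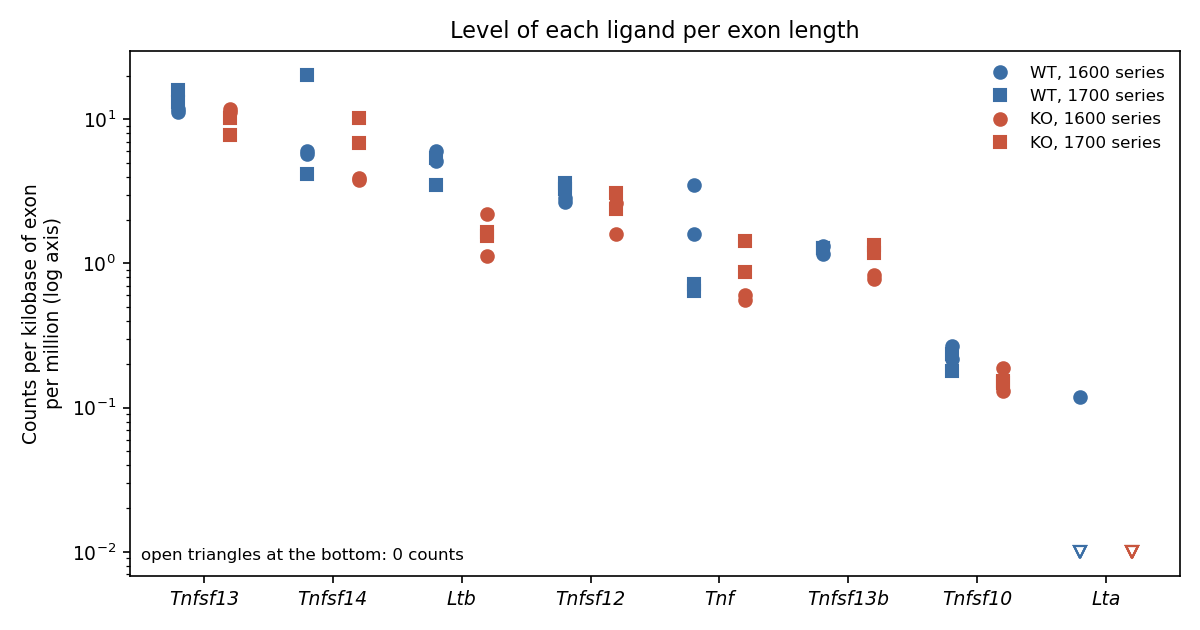
Level of each ligand in CPM per kilobase of exon (y axis, logarithmic) in each WT and KO library, ordered by the WT mean, with circles for the 1600 series, squares for the 1700 series and open triangles for 0 counts. Tnfsf13 leads with WT libraries between 11.2 and 15.9, and Ltb moves from 3.48 to 6.03 in WT to 1.12 to 2.22 in KO.

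Of 10 further ligands of the family, 1 passed the filter. Tnfsf9 (4-1BB ligand) was at 10.4, 6.67, 5.11 and 29.6 CPM in WT and at 7.94, 5.68, 16.8 and 24.4 CPM in KO, with replicate 4 highest in both genotypes as for Tnfsf14. Its log2 change was 0.14 ± 0.69 (edgeR adjusted p = 0.927). Cd40lg, Cd70, Tnfsf8, Tnfsf11, Tnfsf18 and Eda had 0 counts in every library, and Fasl, Tnfsf15 and Tnfsf4 had 14, 8 and 2 counts in all.

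Receptors for the 8 ligands were read from the same cells. Of 12 such genes, 8 passed the filter, 6 had a negative log2 change and the median was -0.17, against 5 and -0.01 without KO 1 and KO 2. None passed at an adjusted p of 0.05 with edgeR, where 2 of 8 had an unadjusted p under 0.05 against 20.9% of all genes. With DESeq2 1 passed, against 6.28% of all genes, and with limma-voom 0. Tnfrsf10b, Tnfrsf13c, Tnfrsf17 and Tnfrsf11b, which include the death receptor for TRAIL and receptors for BAFF, had 2, 4, 7 and 0 counts in all.

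Ltbr, the receptor of the Ltb and Lta trimer and of LIGHT, was at 51.0, 49.4, 48.9 and 61.8 CPM in WT and at 40.0, 26.7, 37.5 and 35.2 CPM in KO. All 4 KO libraries were below all 4 WT libraries. The log2 change of -0.53 ± 0.15 missed the threshold with edgeR (adjusted p = 0.0801) and passed with DESeq2 (adjusted p = 0.0295). Once length and GC content were offset, the Ltbr change was -0.15 ± 0.15 (edgeR adjusted p = 0.627), and without KO 1 and KO 2 it was -0.49 ± 0.17.

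Both receptors of TNF itself were expressed in all libraries. Tnfrsf1a, with a death domain, was at 137 to 223 CPM in WT and 117 to 178 CPM in KO (log2 change -0.17 ± 0.15, edgeR adjusted p = 0.553). Tnfrsf1b, without one, was at 154, 217, 98.5 and 130 CPM in WT and at 126, 87.7, 133 and 175 CPM in KO. As for Tnf, its KO libraries were below WT in the 1600 series and above WT in the 1700 series, with changes of -0.64 and 0.42. The difference of 1.05 ± 0.32 did not pass (edgeR interaction adjusted p = 0.147), and the pooled log2 change was -0.12 ± 0.22 (edgeR adjusted p = 0.796).

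Tnfrsf13b (TACI, a receptor of BAFF and APRIL) was at 77.7 to 137 CPM in WT and 62.5 to 94.5 CPM in KO, a log2 change of -0.17 ± 0.17 (edgeR adjusted p = 0.597). Tnfrsf12a, the TWEAK receptor, was at 9.31 to 17.6 CPM in WT and 6.58 to 9.45 CPM in KO, and its -0.61 ± 0.21 did not pass (edgeR adjusted p = 0.135). Tnfrsf14, at 0.985 to 2.50 CPM over all libraries, gave -0.29 ± 0.30. The decoy receptors Tnfrsf22 and Tnfrsf23 were near or under 1 CPM in most libraries, with log2 changes of 0.08 ± 0.39 and 0.64 ± 0.48. These 5 receptors had changes of both signs, and none passed.

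Among 16 other receptors of the family, 8 passed the filter and 0 passed at an adjusted p of 0.05 with edgeR, while 2 of the 8 had an unadjusted p under 0.05 (20.9% of all genes). One passed with DESeq2 (6.28% of all genes) and 0 with limma-voom. Their median log2 change was -0.15, with 6 of 8 negative. Relt was at 103 to 112 CPM in WT and 45.6 to 79.8 CPM in KO without overlap, a change of -0.66 ± 0.15 just outside the threshold (edgeR adjusted p = 0.0528). Tnfrsf11a (RANK) was at 3.17 to 4.36 CPM in WT and 1.91 to 2.60 CPM in KO, also without overlap (-0.68 ± 0.22, edgeR adjusted p = 0.115).

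**Figure D3:**
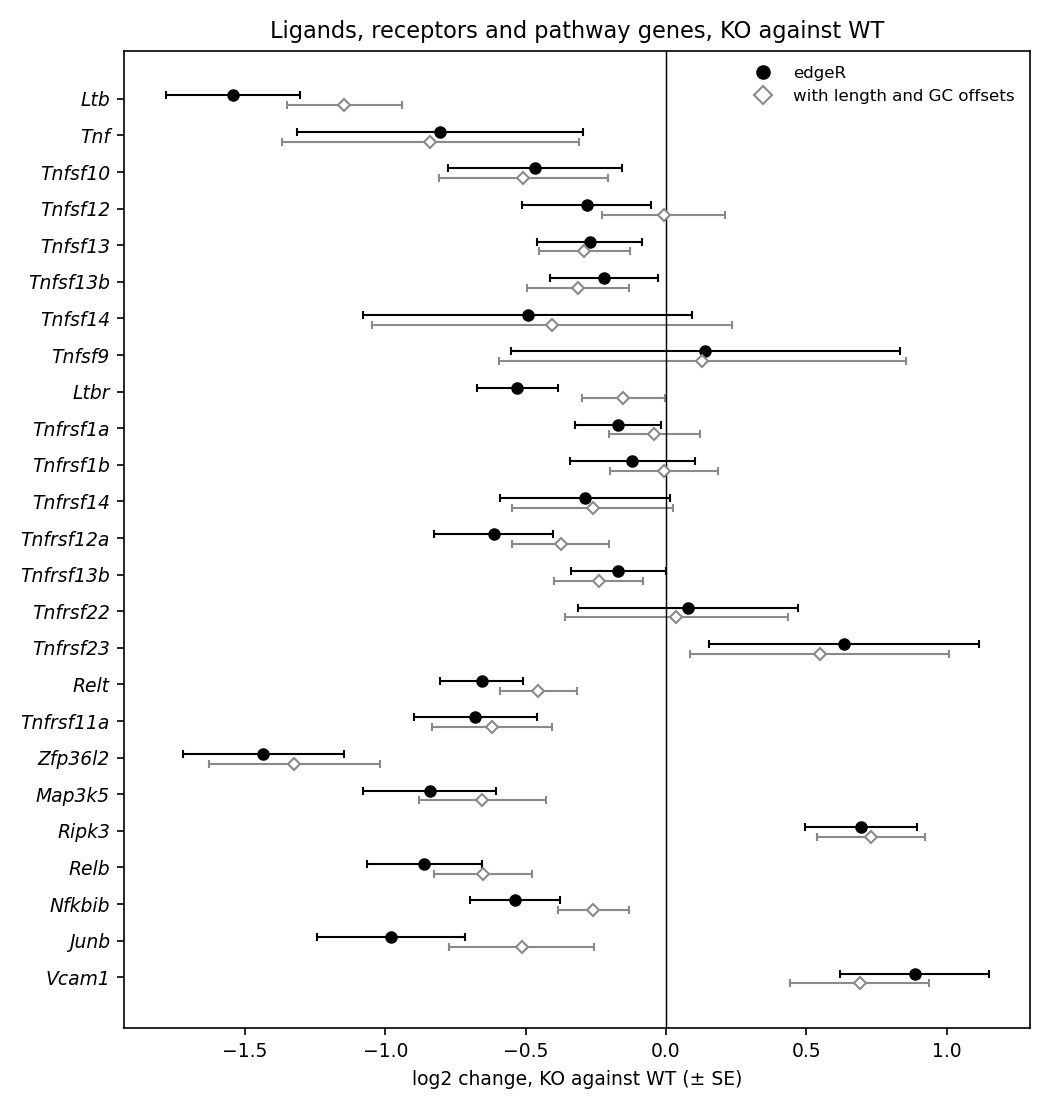
Log2 change of KO against WT (x axis, with SE) for the 7 tested ligands, Tnfsf9, receptors and pathway genes, from edgeR (filled circles) and with offsets for transcript length and GC content (open diamonds). Ltb lies farthest to the left at -1.54 and Zfp36l2 next at -1.44, and the offsets move Ltbr from -0.53 to -0.15.

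Genes that shed ligands or control the decay of their mRNAs numbered 20, of which 17 were tested. One of them was called lower in KO with edgeR, against 0.838% of all genes, 2 with DESeq2, against 3.47%, and 0 with limma-voom. In the list 13 were negative and the median was -0.37. The called gene was Zfp36l2, which binds AU-rich elements and destabilises mRNAs. It was at 27.7, 17.1, 27.3 and 9.87 CPM in WT and at 7.94, 5.63, 8.24 and 7.09 CPM in KO, with every KO library below every WT library.

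Zfp36l2 fell by 1.44 ± 0.29 on the log2 scale (edgeR adjusted p = 0.0432). The call held in 10 of 20 alternative settings, and its adjusted p ranged from 2.14e-05 to 0.179 over them. It was lost in 6 of the 8 fits without 1 library, where the change lay between -1.48 and -1.23. These were the fits without WT 1, WT 3, KO 1, KO 2, KO 3 or KO 4. The call was also lost without both KO 1 and KO 2 (-1.38 ± 0.39) and with limma-voom (adjusted p = 0.0927). The same held with the length and GC offsets (edgeR adjusted p = 0.1085) and within the 1700 series (edgeR adjusted p = 0.179). Adam17, the protease that sheds TNF, was at 15.4 to 38.7 CPM in WT and 27.3 to 42.6 CPM in KO, a log2 change of 0.21 ± 0.23 (edgeR adjusted p = 0.646). Other genes of the list had either sign. Rhbdf2 was at 6.59 to 9.03 CPM in WT and 3.17 to 5.39 CPM in KO without overlap (-0.82 ± 0.22, edgeR adjusted p = 0.0744). Frmd8 changed by -0.54 ± 0.18 (edgeR adjusted p = 0.127) and Adam10 by 0.24 ± 0.15 (edgeR adjusted p = 0.382). Zfp36, the better known regulator of Tnf mRNA decay, was at 157 to 304 CPM in WT and 88.1 to 248 CPM in KO, a change of -0.31 ± 0.29 (edgeR adjusted p = 0.566).

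Adaptors and enzymes next to the receptors were 27, with 26 tested and 0 called with edgeR. Of these, 6 of 26 had an unadjusted p under 0.05, a share near the 20.9% of all genes. DESeq2 called 1 lower and 1 higher, against 3.47% and 2.81% of all genes, and limma-voom called 0. The kinase Map3k5 was at 2.89 to 4.95 CPM in WT and 2.16 to 2.55 CPM in KO (-0.84 ± 0.24, edgeR adjusted p = 0.0859). Ripk3, the kinase of necroptosis, had the opposite sign, at 16.4 to 27.7 CPM in WT and 26.1 to 43.1 CPM in KO (0.70 ± 0.20, edgeR adjusted p = 0.0906). The list had 18 negative genes and a median of -0.24.

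All 13 core genes of NF-kB, its subunits, inhibitors and kinases, were tested, and all 13 had a negative log2 change with a median of -0.43. None was called with edgeR, where 4 of 13 had an unadjusted p under 0.05 against 20.9% of all genes. DESeq2 called 1, against 6.28% of all genes, and limma-voom 0. Relb, the subunit activated downstream of the lymphotoxin beta receptor, was at 34.0, 32.9, 23.1 and 20.98 CPM in WT and at 16.7, 9.49, 13.2 and 18.5 CPM in KO. The groups did not overlap, and the change of -0.86 ± 0.21 missed the threshold (edgeR adjusted p = 0.0569). Nfkbib, an inhibitor, changed by -0.54 ± 0.16 (edgeR adjusted p = 0.0983).

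The NF-kB list moved with the libraries that entered. Without KO 1 and KO 2, 11 of 13 genes were negative with a median of -0.21, and with the length and GC offsets 10 of 13 with a median of -0.26. Within the 1600 series all 13 were negative with a median of -0.60, and within the 1700 series 9 with a median of -0.125.

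Transcripts that TNF is known to induce numbered 23, of which 20 were tested and 0 called with edgeR. Of these, 5 of 20 had an unadjusted p under 0.05, against 20.9% of all genes. DESeq2 called 1, against 6.28% of all genes, and limma-voom 0. The median was -0.24 with all libraries, 0.14 without KO 1 and KO 2, -0.85 within the 1600 series and 0.07 within the 1700 series, so that its sign followed the libraries used. Junb was at 286 to 415 CPM in WT and 73.1 to 202 CPM in KO without overlap (-0.98 ± 0.26, edgeR adjusted p = 0.0932). Vcam1 was at 1.12 to 1.79 CPM in WT and 1.97 to 3.03 CPM in KO, with every KO library above every WT library (0.89 ± 0.26, edgeR adjusted p = 0.0983).

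The test of the difference between the number series, which Tnf missed, was passed by 0.784% of all genes. It was passed by 2 of the 20 tested TNF-induced transcripts and, among the 8 other receptors tested, by Cd40. Cxcl10, a chemokine gene, was at 64.0, 62.0, 27.0 and 26.1 CPM in WT and at 15.1, 11.7, 54.2 and 51.0 CPM in KO. Its KO libraries were below WT in the 1600 series and above WT in the 1700 series, and the log2 changes differed by 3.03 ± 0.24 (edgeR interaction adjusted p = 0.000307). The adhesion gene Icam1 showed the same order, with a difference of 1.26 ± 0.26 (edgeR interaction adjusted p = 0.0493). These genes were chosen after their values were seen.

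Lymphocytes are a known source of Ltb, so their markers are given beside it. The B cell list of 14 genes summed to 17.1 to 39.0 CPM in WT and 16.1 to 34.6 CPM in KO, and nearly all of it was Cd79b. Cd79b was at 22.1, 37.5, 34.1 and 16.1 CPM in WT and at 16.5, 15.8, 33.9 and 31.6 CPM in KO, so that KO 3 and KO 4 lay above WT 1 and WT 4 and below WT 2 and WT 3. Spib, a transcription factor gene of B cells and plasmacytoid dendritic cells, had 4, 8, 4 and 1 counts in WT and 0, 0, 0 and 1 counts in KO, so that as CPM every KO library lay below every WT library. Between WT 4 and KO 4 that order rests on 1 count each. With 18 counts in all Spib did not pass the low-count filter, and its part in the Ltb difference was not tested. Cd22, Cd79a and Fcer2a of the same list had 37, 28 and 22 counts in all, and each overlapped between the genotypes. Pax5, Ebf1, Blk, Fcmr, Vpreb3 and Pou2af1 were at 0 in all libraries, and Ms4a1 had 7 counts in all.

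The T cell list of 15 genes summed to 1.06 to 1.74 CPM in WT and 0.927 to 1.94 CPM in KO. None of its genes passed the low-count filter, and the most counted, Cd3d and Cd8a, had 37 and 31 counts in all. The list for natural killer and innate lymphoid cells summed to 10.2 to 18.4 CPM in WT and 9.55 to 17.1 CPM in KO, led by the receptors Klrk1 and Klrd1, with Ncr1 and Gata3 at 0. From that list 1 of 4 tested genes rose, Nkg7, by 1.92 ± 0.41 on the log2 scale (edgeR adjusted p = 0.0433) at 0.381 to 0.497 CPM in WT and 1.09 to 2.61 CPM in KO, where 0.223% of all genes were called higher. The 3 lymphocyte sums overlapped between the genotypes, and their part in the Ltb difference was not tested.

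**Figure D4:**
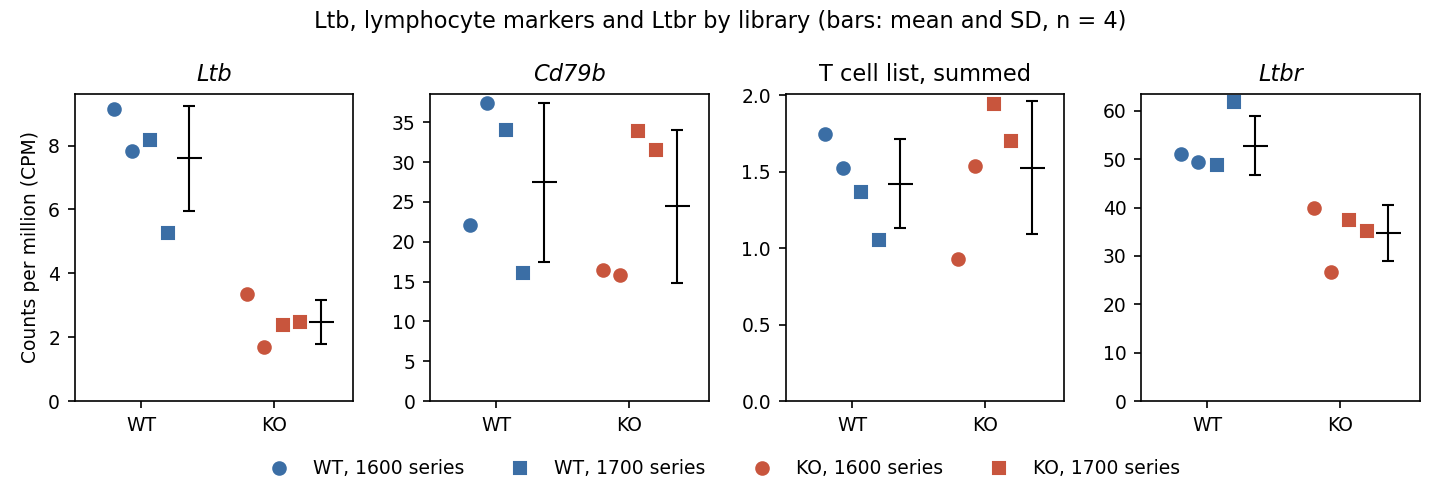
Ltb, Cd79b, the summed T cell list and Ltbr in CPM (y axis, linear, a separate scale for each panel) in the 4 WT and 4 KO libraries, with the mean and SD. Cd79b and the T cell list overlap between the genotypes, while the KO values of Ltb and Ltbr lie below the WT values.

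The sums of the plasmacytoid dendritic cell and monocyte lists did not overlap between the genotypes, as Ltb did not. A sum is weighted towards the most counted genes of its list. The plasmacytoid dendritic cell list summed to 203 to 230 CPM in WT and 89.9 to 143 CPM in KO, of which most was Bst2, an interferon-induced gene that fell by 0.71 ± 0.14 on the log2 scale (edgeR adjusted p = 0.0377). In the same list Runx2, a transcription factor gene of these cells, was at 1.47, 0.578, 1.26 and 1.06 CPM in WT and at 0.464, 0.0568, 0.331 and 0.138 CPM in KO. All KO libraries lay below all WT libraries, with a log2 change of -2.06 ± 0.52 that missed the threshold (edgeR adjusted p = 0.0696). Cox6a2 had 4, 2, 5 and 1 counts in WT and 0, 0, 0 and 3 counts in KO, and Tcf4 changed by -0.05 ± 0.20 on the log2 scale (edgeR adjusted p = 0.913). Ccr9 had 5, 7, 3 and 3 counts in WT and 0, 3, 4 and 15 counts in KO, highest in KO 4. Ly6d had 3, 1, 0 and 0 counts in WT and 0, 0, 7 and 0 counts in KO. Pacsin1 had 1 count in all, and Siglech, Klk1 and Lag3 were at 0 in all libraries. Nonclassical monocyte markers summed to 1248 to 1361 CPM in WT and 879 to 1126 CPM in KO, and classical monocyte markers to 126400 to 135800 CPM and 143500 to 168200 CPM. Of the 14 nonclassical markers 12 were negative, and 6 had an unadjusted p under 0.05, against 20.9% of all genes. Called lower were 1 with edgeR (0.838% of all genes), 3 with DESeq2 (3.47%) and 0 with limma-voom. With the length and GC offsets 1 was called, where 1 gene was called in all. Of the 14 classical markers 11 were positive, and 2 had an unadjusted p under 0.05, against 20.9% of all genes. EdgeR and limma-voom called 0 of them, and DESeq2 1 lower and 1 higher, against 3.47% and 2.81% of all genes. All KO libraries lay above all WT libraries for 1 classical marker (2.81% of tested genes) and below them for 1 (8.66%). Proliferation markers summed to 145 to 300 CPM in WT and 253 to 972 CPM in KO, overlapping through KO 4 at 253 CPM and WT 2 at 300 CPM. All 13 tested proliferation markers had a positive log2 change with a median of 2.66, and all 13 had an unadjusted p under 0.05, against 20.9% of all genes. Of these 1 was called with edgeR, Kif11, a motor protein gene of the mitotic spindle (3.33 ± 0.65, edgeR adjusted p = 0.0432), against 0.223% of all genes called higher. DESeq2 called 11 of 14 proliferation markers higher, against 2.81% of all genes, and limma-voom called 0. Whether these shifts have a part in the Ltb difference was not tested.

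Neutrophil markers summed to 291 to 686 CPM in WT, to 2387 and 3473 CPM in KO 1 and KO 2, and to 839 and 641 CPM in KO 3 and KO 4. Ltb was at 2.37 and 2.49 CPM in KO 3 and KO 4, inside the range of KO 1 and KO 2. Conventional dendritic cell markers summed to 276 to 550 CPM in WT and 120 to 604 CPM in KO, and erythroid and platelet markers to 4.36 to 10.7 CPM and 6.44 to 26.9 CPM, both with overlap.

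The genes whose pattern over the 8 libraries was most like that of Ltb were sought among 5138 tested genes with a mean of at least 10 CPM. Likeness was the root mean square difference of log2 CPM after each gene was centred on its own mean. The nearest were Crlf2 (0.287), a subunit of the receptor for thymic stromal lymphopoietin, Cebpb (0.288), a transcription factor of the monocyte lineage, and Zfp36l2 (0.299), with Ccdc85b (0.314) and the pro-apoptotic gene Bbc3 (0.318) next. For scale, Ltb itself deviated from its mean by 0.812. Cebpb, which is also in the list of nonclassical monocyte markers, was at 228 to 259 CPM in WT and 54.7 to 172 CPM in KO.

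For Tnf, genes with a near pattern were Irf1 (0.462), a factor of the interferon response, and Nfkbie (0.471), an inhibitor of NF-kB, against a deviation of 0.771 for Tnf itself. Irf1 was at 179, 140, 86.8 and 120 CPM in WT and at 76.7, 75.4, 105 and 173 CPM in KO. Like Tnf, it was highest in WT 1 and higher in KO 4 than in WT 3 and WT 4. These are descriptions of 8 libraries, chosen for likeness, with no test.

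**Figure D5:**
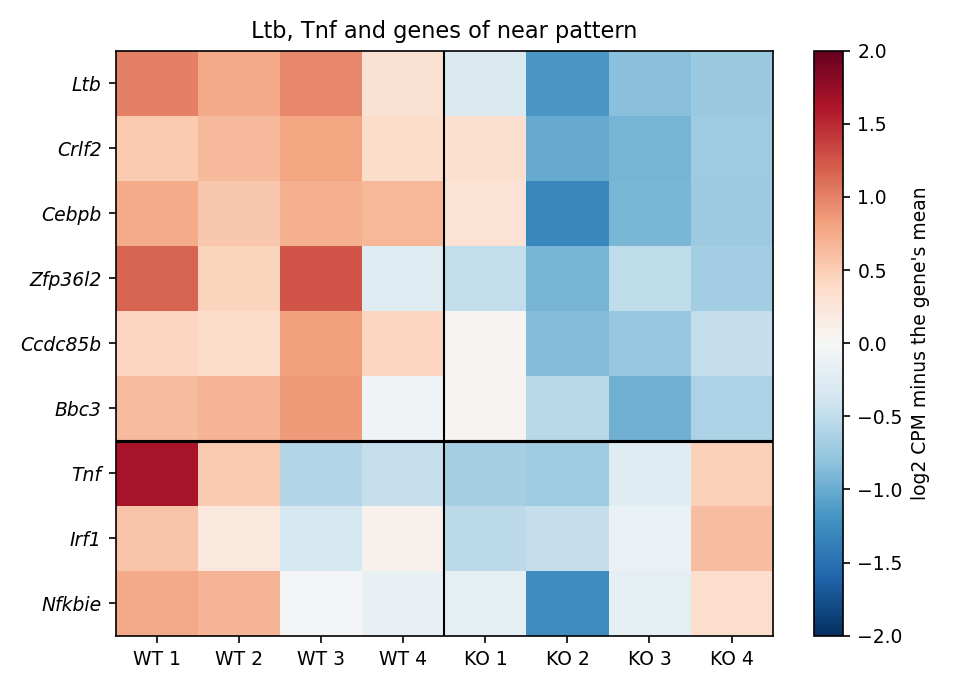
Deviation of log2 CPM from each gene's mean (colour, from -2 to 2) in the 8 libraries (columns) for Ltb with the 5 genes most like it and Tnf with 2 genes of near pattern (rows). The Ltb block is above the mean in most WT libraries and below it in KO 2, KO 3 and KO 4, whereas the Tnf row is high in WT 1 (1.64) and KO 4 (0.48).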

How the data were processed

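The deposited data are unnormalized read counts for each gene in 8 libraries, in 1 table made by the authors. Per the labels' protocols, RNA of sorted cells was turned into cDNA with oligo-dT primers and SMART-Seq v4 template switching and amplified, so recovery can vary with transcript length, GC content and RNA quality. Amplified reads are not independent molecules, and intervals cover counting error only. Per the submitters' processing notes, the tools included HISAT2 2.0.5 and featureCounts 1.5.0-p3, and the build was GRCm38. The counts were tested whole with edgeR 4.0.16 in R 4.3.3, by the robust quasi-likelihood test after filterByExpr and TMM scaling. The p-values were adjusted by Benjamini-Hochberg over 11222 genes, which hold 99.9% of the counts, and SE is the log2 change over the root of F. CPM uses library totals. Lengths and loci come from GENCODE M21, which held 52125 of 56748 identifiers. Alternatives used DESeq2 1.42.0, limma 3.58.1 (voom), mgcv 1.9.3 offsets, other scalings and filters, and fewer libraries. The ligands and gene lists were chosen with earlier results of these data known. Named genes were the 8 ligands, tested receptors, genes past 0.05 in each list or otherwise the 2 of smallest p, the most counted markers and the nearest patterns. Adam17, Adam10, Rhbdf2, Frmd8, Zfp36 and some markers were named after their values were seen. A few genes covered by this choice are not reported here. The test was checked on simulated data.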

Additional observations from a re-analysis of the deposited data

Results flagged for a closer look

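In 52 groups of 4 libraries, each a gene or a summed marker list in 1 genotype, 5 held a library whose gap to the nearest other exceeded the 95% limit of Dixon's test, where chance gives about 1 in 20 (2.6). These were Tnfsf14 in WT 4 (37.7 CPM), Ltbr in WT 4 (61.8 CPM), Tnfrsf13b in WT 2 (137 CPM), the summed plasmacytoid dendritic cell markers in KO 2 (89.9 CPM) and the summed erythroid and platelet markers in KO 3 (26.9 CPM).

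Tnf, Tnfrsf1b and Tnfrsf13b moved in opposite directions in the 2 number series, with both KO libraries below both WT libraries in the 1600 series and above them in the 1700 series. The difference of the log2 changes was 2.71 for Tnf (edgeR interaction adjusted p = 0.0777), 1.05 for Tnfrsf1b (0.147) and 0.54 for Tnfrsf13b (0.433), so that none passed the test of the difference.

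Of 163 tested genes in all lists, 6 passed that test (edgeR), against 0.784% of all genes. The difference of the log2 changes was 3.03 for Cxcl10 (interaction adjusted p = 0.000307), 1.64 for Cd40 (0.0428) and 1.26 for Icam1 (0.0493). Among the marker lists it was 1.68 for Cx3cr1, -1.12 for Ear2 and -3.86 for S100a9 (0.0369 each). Cd40 was at 156, 138, 139 and 92.5 CPM in WT and at 50.5, 34.5, 118 and 119 CPM in KO. S100a9 was higher in every KO library than in every WT library, most in KO 1 and KO 2 at 463 and 729 CPM, against 20.2 to 32.1 CPM in KO 3 and KO 4.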

How the results depend on the processing

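The count of 119 genes became 742 without the low-count filter, 763 with DESeq2, 0 with limma-voom (2352 at an unadjusted p under 0.05, against 2344 with edgeR), 251 with the number series as covariate, 1 with offsets for length and GC content, 7 when KO 1 and KO 2 were left out and 611 at an adjusted p of 0.1. Leaving out 1 library gave 0 (without WT 1, WT 3, KO 2 or KO 3) to 515 (without WT 2), with 3 without WT 4, 64 without KO 1 and 235 without KO 4. Ltb was the only ligand under the threshold, and since the set was chosen by it, this is no test. Its place under the threshold was lost with limma-voom, with the offsets, without KO 1 and KO 2 and within either series. With 1 library left out it was lost without WT 1, WT 3, KO 2 or KO 3. None of the other 6 tested ligands passed an adjusted p of 0.05 in any of the 20 alternatives. Interaction calls rose from 88 to 293 at an adjusted p of 0.1. The causes were not tested.

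With the title number as replicate block 244 genes (143 higher, 101 lower) were called, and none of the ligands other than Ltb. Over all tested genes, same-numbered WT and KO libraries did not deviate together (correlations of -0.013, -0.028, -0.049 and 0.093). WT 4 alone among WT libraries correlated best with its own number. With 4 libraries per genotype, these correlations cannot exclude that the numbers pair the samples. Single genes, such as Tnfsf14, were high in both WT 4 and KO 4.

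Signs turned for Tnf (0.74 within the 1700 series), Tnfsf13 (0.17 within the 1600 series), Tnfsf13b (0.039 without KO 1 and KO 2), Tnfrsf1a (0.015 within the 1700 series), Tnfrsf1b (0.10 without KO 1 and KO 2, 0.42 within the 1700 series), Tnfrsf13b (0.10 within the 1700 series), Tnfrsf22 (-0.043 within the 1700 series) and Tnfsf9 (-0.17 within the 1600 series). With 1 library left out, log2 changes ranged from -0.85 to 0.31 for Tnfsf14, from -0.30 to 0.98 for Tnfsf9, from -0.29 to 0.091 for Tnfrsf1b, from -0.27 to 0.026 for Tnfrsf13b and from -0.061 to 0.31 for Tnfrsf22. Ltb stayed negative in all 20 alternatives. Low counts limit Tnfsf10 and Lta most.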

Other observations

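WT 4 and KO 4 were the highest libraries of their genotype for several genes, a pattern noticed in the values and not tested. Tnfsf14 was at 37.7 CPM in WT 4 and 18.9 CPM in KO 4, against 6.99 to 12.6 CPM in the other 6 libraries. Tnfsf9 was at 29.6 and 24.4 CPM there, and the cytokine signalling inhibitor Socs3 at 186 and 154 CPM, against 11.6 to 31.9 CPM elsewhere. The early response gene Ier3 was at 64.4 and 58.8 CPM, against 13.6 to 36.4 CPM. The cytokine gene Il1b was at 658 and 608 CPM, against 159 to 430 CPM. Tnf shared this only in KO, where KO 4 was highest at 2.35 CPM. In WT it was at 1.18 CPM in WT 4, against 5.77 CPM in WT 1.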
